A study of Mus musculus with 19 samples.

Results

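Dnmt3a-deficient leukemia was compared with Dnmt3a-intact cells that carry the same duplication of part of FLT3 (FLT3-ITD, an internal tandem duplication in a growth factor receptor of blood progenitors), in a retroviral and a knock-in mouse model, to find genes that moved the same way in both. The members are libraries chosen by their labelled genotype: 7 deficient and 6 intact libraries, 13 of the 17 RNA-seq libraries in the series (19 sample records). The other 4 libraries, normal thymocytes carrying GFP alone, have no FLT3-ITD and were not used.

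All mice were C57BL/6. In the retroviral model, marrow of Mx1-cre+ donors was transduced with MSCV_FLT3-ITD-GFP and transplanted into irradiated recipients, and donor-derived CD4+CD8+ leukemic cells were sorted from thymus or marrow. Its intact libraries were Dnmt3a+/+ (WT-ITD, n = 3) and its deficient libraries Dnmt3a f/f, where f is a floxed allele that Cre deletes (KO-ITD, n = 4). In the knock-in model every mouse was Flt3+/ITD, with the duplication in 1 mouse Flt3 allele, and bulk marrow was not sorted. The intact libraries were pre-leukemic marrow, ER-cre- and Dnmt3a f/f, so floxed but without Cre (KI-WT, n = 3). The deficient libraries were leukemias, ER-cre+, and either Dnmt3a f/+ (KI-HET, n = 2) or Dnmt3a f/f (KI-KO, n = 1). In this model Dnmt3a deficiency, the presence of Cre and the step from pre-leukemia to leukemia therefore cannot be told apart. The Mx1 promoter is active in blood cells and in other cells that respond to interferon, and the vector is expressed only in transduced cells and their progeny. Ages are not given in the labels, and the labels call the replicates biological without tying each to an animal, so p-values measure the spread between these libraries.

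DNMT3A adds methyl groups to CpG sites that were not methylated before, and its gene is among those most often mutated in acute myeloid leukemia, frequently together with FLT3-ITD. FLT3 drives growth of blood progenitors through STAT5, MAP kinase and PI3 kinase signalling, and the duplication makes it active without its ligand. In mice, loss of Dnmt3a lets blood stem cells self-renew at the expense of differentiation. Methylation of a promoter rich in CpG usually goes with silencing, whereas methylation within gene bodies often goes with expression.

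The libraries held 4933890 to 22347359 estimated fragment counts over genes. WT-ITD replicates 1 and 3 and KO-ITD replicates 3 and 4 came from thymus, and the other 9 libraries came from marrow. A second submission added KO-ITD 3 and 4 together with the whole knock-in model. The donor cells of every KO-ITD library and of WT-ITD 1 had been enriched for Sca-1, those of WT-ITD 2 for ckit, and WT-ITD 3 came from whole marrow. T cell markers matched the sort: in CPM, counts per 1e6 of the scaled library, the summed level of 24 double-positive T cell genes was 14240 to 18800 in WT-ITD, 7942 to 13370 in KO-ITD, 457 to 531 in KI-WT and 217 to 404 in the deficient knock-in libraries. Intact and deficient libraries overlapped in neither model in this sum, and the intact ones were the higher in both. Xist, which marks an inactive X chromosome, was above 1000 CPM in only 2 of the 13 libraries, WT-ITD 3 and KO-ITD 2, so each retroviral group held 1 such library.

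Dnmt3a (mm9 chr12:3806980-3914443, plus strand) was lower in every deficient library of each model. It stood at 182, 229 and 184 CPM in WT-ITD and at 66.0, 123, 70.5 and 55.6 CPM in KO-ITD. The knock-in libraries gave 132, 154 and 138 CPM in KI-WT, 55.6 and 48.5 CPM in the Dnmt3a f/+ libraries and 37.7 CPM in the f/f library. KO-ITD 2 was the highest of the deficient libraries, and the groups overlapped in neither model. With model as a covariate the log2 fold change of Dnmt3a was -1.45 (SE 0.185, adjusted p = 0.0157, edgeR quasi-likelihood test with Benjamini-Hochberg adjustment over 13926 genes). It did not pass without WT-ITD 2 (adjusted p = 0.0894) or KI-WT 1 (adjusted p = 0.0752). Exons that Cre leaves in place add to the gene count, which therefore does not measure intact enzyme. The transcript-level counts divide Dnmt3a into the long form and a short form that starts from an internal promoter. The long form was at 62.8 to 76.6 CPM in WT-ITD against 16.2 to 42.4 in KO-ITD, and at 59.9 to 91.4 CPM in KI-WT against 16.4 to 27.7 in the deficient knock-in libraries. The short form was at 107 to 152 against 39.4 to 80.6 CPM, and at 63.0 to 75.7 against 15.5 to 39.2 CPM. Neither form overlapped between deficient and intact libraries within a model.

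**Figure D1:**
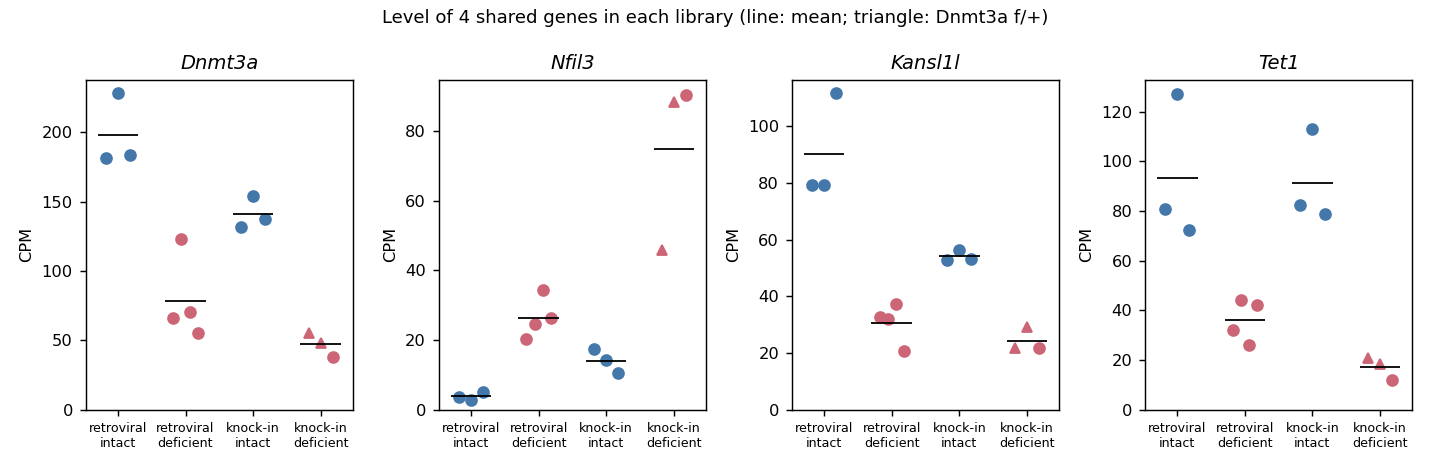
Level of Dnmt3a, Nfil3, Kansl1l and Tet1 in each library, in CPM on a linear axis from 0, with libraries of each model divided by Dnmt3a status; horizontal lines are group means, circles are single libraries and triangles the Dnmt3a f/+ libraries. Deficient and intact libraries do not overlap in either model for any of the 4 genes, and Nfil3 is the one that is higher in the deficient libraries.

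Across the 13 libraries 81 genes passed an adjusted p of 0.05 for Dnmt3a status (39 rose and 42 fell), which is 0.582% of the 13926 genes tested (0.28% for rises and 0.302% for falls). All 81 had the same direction in both models, as a test of the pooled effect favours. The groups did not overlap in either model for 70 of the 81, against 411 genes, or 2.95%, among all tested (34 of the 39 rises, against 1.19% of all genes, and 36 of the 42 falls, against 1.76%). The same test favours such separation, so these shares describe the calls and give no separate support. In absolute terms the pooled log2 fold changes ran from 0.54 to 9.42 with a median of 1.41, and 60 of the 81 were at least 2-fold. The rises were larger than the falls: their median log2 fold change was 2.61 (2.88 in the retroviral and 2.42 in the knock-in model), and that of the falls was -1.22 (-1.05 and -1.31). The median of all genes tested was 0.10.

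Most of the 81 lay close to the threshold, with an adjusted p above 0.04 for 61 of them, and 66 further genes lay between 0.05 and 0.06. At an adjusted p of 0.10, chosen after seeing the data, 1145 genes passed and 1135 of them had the same direction in both models. Without 1 library at a time the count moved by more than 1.5 times for 10 of the 13: to 1 without WT-ITD 2 or KI-WT 1, 4 without KI-WT 2 or KI-WT 3, 5 without KI-HET 2, 11 without KO-ITD 3, 20 without KI-KO 1, 21 without KO-ITD 4, 25 without KO-ITD 1 and 1185 without KO-ITD 2. Each of the 81 that could be tested kept its direction in all of these fits, which their selection from the same libraries favours. Nfil3 was the gene left without WT-ITD 2 and the gene left without KI-WT 1, and it passed in all 13.

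Within the knock-in model alone 573 genes passed (378 rose, 2.71% of those tested, and 195 fell, 1.4%; 4.11% in all), and within the retroviral model 18 passed, or 0.129% (10 rose, 0.0718%, and 8 fell, 0.0574%). Of the 81 shared genes 37 were also called in the knock-in model and 5 in the retroviral model, and 41 were called in neither alone. The 2 models have no library in common. Over all genes tested 59.6% had the same sign in both, and the log2 fold changes of the models correlated weakly across genes (Pearson's r 0.204, Spearman's rank correlation 0.216; genes are not independent replicates). Of the 573 knock-in calls 381 (66.5%) had the same sign in the retroviral model, and of the 18 retroviral calls 9 (50%) had the same sign in the knock-in model. The calls within a model also rested on single libraries. The knock-in count was 5, 22 and 38 without KI-WT 2, 1 and 3, 26 without KI-HET 2, 68 without KI-KO 1, 375 without WT-ITD 1 or WT-ITD 2, 967 without KO-ITD 4 and 1616 without KI-HET 1. The retroviral count was 0 without WT-ITD 1 (1655 genes at an unadjusted p below 0.05), 1 without WT-ITD 2, KO-ITD 1 or KI-WT 2, 2 without KI-WT 1, 4 without KI-WT 3, 8 without KI-HET 2, 30 without KO-ITD 2 and 158 without WT-ITD 3.

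**Figure D2:**
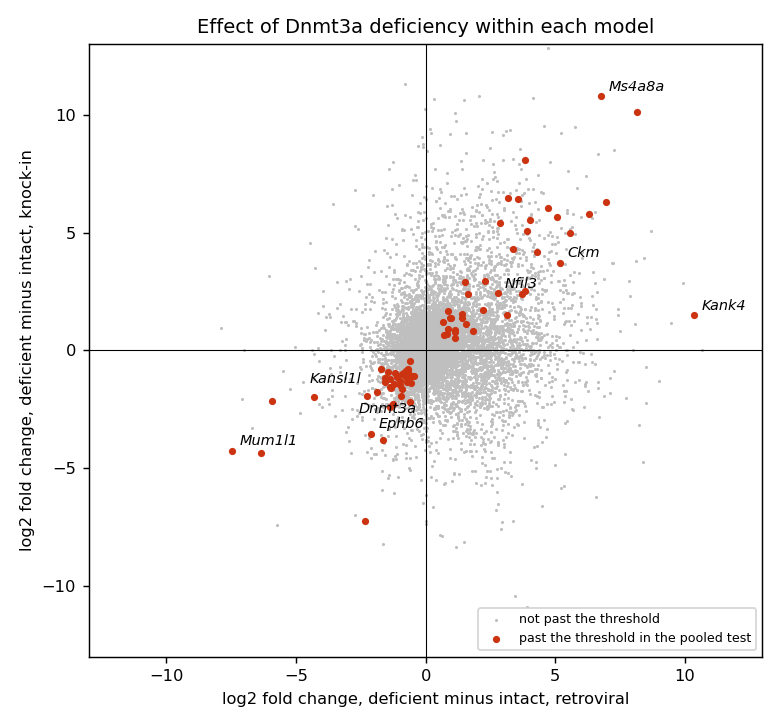
Log2 fold change of each tested gene, deficient minus intact, in the retroviral model (horizontal) and in the knock-in model (vertical); grey points are genes that did not pass the pooled test and red points the 81 that did. The red points all lie in the upper right or lower left corner, while the grey points spread over the whole plot, with 59.6% of all genes having the same sign in both models.

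Nfil3 and Kansl1l were the genes called with the same direction in both models separately (0.349% of the knock-in calls and 11.1% of the retroviral calls), and no gene was called in opposite directions. Nfil3 encodes a basic leucine zipper repressor with roles in natural killer and other innate lymphoid cells, and Kansl1l encodes a protein related to KANSL1, a subunit of a histone acetyltransferase complex. Their promoters are shown because these genes carry the shared result and DNMT3A acts on CpG sites. The sequences are RefSeq's for GRCm38.p6, a later build than the mm9 of the counts, and cover 250 bases before to 50 bases after the gene start, 5′ to 3′ on the gene's strand, with each CpG in capitals. Nfil3 lies at chr13:52980990-52981289 on the minus strand, Kansl1l at chr1:66817546-66817845 on the minus strand, and Tet1, described further on, at chr10:62887275-62887574 on the minus strand.
Nfil3: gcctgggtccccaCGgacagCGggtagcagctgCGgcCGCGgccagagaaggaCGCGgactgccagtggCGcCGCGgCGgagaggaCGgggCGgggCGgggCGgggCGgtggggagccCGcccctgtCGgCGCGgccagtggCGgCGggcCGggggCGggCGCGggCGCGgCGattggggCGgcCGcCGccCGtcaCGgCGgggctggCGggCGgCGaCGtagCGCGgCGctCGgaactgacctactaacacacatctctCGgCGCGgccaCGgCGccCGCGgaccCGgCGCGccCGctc
Kansl1l: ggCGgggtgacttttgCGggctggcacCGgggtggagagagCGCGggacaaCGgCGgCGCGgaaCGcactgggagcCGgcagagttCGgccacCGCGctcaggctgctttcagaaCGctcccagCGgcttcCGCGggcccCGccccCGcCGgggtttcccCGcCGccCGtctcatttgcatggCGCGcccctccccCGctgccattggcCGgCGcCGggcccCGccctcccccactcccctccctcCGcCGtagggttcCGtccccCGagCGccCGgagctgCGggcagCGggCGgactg
Tet1: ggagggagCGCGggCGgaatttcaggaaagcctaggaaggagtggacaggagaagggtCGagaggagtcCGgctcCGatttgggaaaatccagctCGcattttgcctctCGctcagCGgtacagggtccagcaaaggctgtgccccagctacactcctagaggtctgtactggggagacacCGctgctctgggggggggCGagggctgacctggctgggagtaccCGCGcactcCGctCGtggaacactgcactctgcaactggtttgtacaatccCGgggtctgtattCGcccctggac

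The Nfil3 window held 54 CpG sites, a number reached by 0.363% of the 27025 RefSeq promoters of the same length. The Kansl1l window held 40 (reached by 3.8%) and the Tet1 window 17 (reached by 31.9%). These percentages are of all RefSeq promoters, among them those of genes not tested here. They do not show how the windows rank among tested genes. CpG was searched as the letters CG, which read the same on both strands. Promoters could be matched for 37 of the 42 shared falls, whose median was 19 CpG. Of the 39 rises only 31 (79.5%) could be matched, and of all genes tested 73.4%, which makes a comparison with either of these sets void. Methylation was not analysed here.

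Nfil3 (mm9 chr13:53062578-53076408) was at 3.77, 2.83 and 4.95 CPM in WT-ITD and 20.4, 24.5, 34.4 and 26.2 CPM in KO-ITD. Among the knock-in libraries it was at 17.3, 14.2 and 10.5 CPM in KI-WT, 45.8 and 88.4 CPM in the f/+ libraries and 90.3 CPM in the f/f library. Every deficient library was above every intact library of its model, with KI-HET 1 the lowest of the deficient knock-in libraries. The pooled log2 fold change was 2.61 (SE 0.247, adjusted p = 0.00162, edgeR quasi-likelihood test), with 2.77 in the retroviral model (adjusted p = 0.0200) and 2.42 in the knock-in model (adjusted p = 0.0108). It was the smallest pooled p of all genes. The log2 fold change was 2.57 with the knock-in f/+ libraries alone, 2.71 with the f/f library alone, 2.65 with tissue as a covariate and 2.48 with submission as a covariate, each past the threshold. Markers of natural killer and cytotoxic cells, in which Nfil3 is known to act, summed to 304 to 491 CPM in WT-ITD and 395 to 3454 CPM in KO-ITD, with overlap, and to 131 to 160 CPM in KI-WT and 178 to 240 CPM in the deficient knock-in libraries, without overlap. Of the 13 tested 0 passed. At an unadjusted p below 0.05, 1 rose and 0 fell (14.5% and 9.34% of all genes). Gzma held the most counts of the 13 in every retroviral library. In KO-ITD 3, the library with the highest sum, it had 25252 counts against 854 for the next, Nkg7. In both KO-ITD 1 and KO-ITD 2, where Nfil3 was at 20.4 and 24.5 CPM, 4 of the 13 (Klrk1, Klrd1, Eomes and Xcl1) had 0 counts. The other 9, among them Gzma, Il2rb, Tbx21, Prf1 and Nkg7, had counts in at least 1 of those libraries. Without KO-ITD 2 or with tissue as a covariate 1 of the 13 rose (644 of 13852 and 737 of 13926 genes rose in these fits). The part of such cells in the rise of Nfil3 was not tested.

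Kansl1l (mm9 chr1:66765817-66864169) was at 79.1, 79.2 and 112 CPM in WT-ITD and 32.7, 32.1, 37.2 and 20.7 CPM in KO-ITD. The knock-in libraries gave 52.8, 56.4 and 53.3 CPM in KI-WT, 21.8 and 29.3 CPM in the f/+ libraries and 21.6 CPM in the f/f library. The deficient libraries of both models lay in the same range, below each intact library. Pooled over models the log2 fold change was -1.37 (SE 0.171, adjusted p = 0.0157), with -1.55 in the retroviral model (adjusted p = 0.0330) and -1.16 in the knock-in model (adjusted p = 0.0310). It no longer passed without WT-ITD 2 (adjusted p = 0.0723) or without KI-WT 1 (adjusted p = 0.0665).

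The separate calls of these genes also depended on single libraries. No gene was called with the same direction in both models without WT-ITD 1, WT-ITD 2, KO-ITD 1, KI-WT 2, KI-WT 3 or KI-HET 2, 1 was without KI-WT 1 or KI-KO 1, 5 were without KO-ITD 2 or KI-HET 1, and 7 were without WT-ITD 3.

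Among the genes of DNA methylation, Tet1 fell together with Dnmt3a. TET1 oxidises methylated cytosine, a first step of demethylation, and so acts opposite to DNMT3A. Of 19 genes of the DNA methylation machinery that were tested, these 2 fell, none rose and 17 did not pass (0.302% of all genes fell and 0.28% rose). Within the knock-in model 1 of the 19 rose and 2 fell (2.71% and 1.4% of all genes did). The list's median log2 fold change was -0.33 (retroviral -0.08, knock-in -0.31), against 0.10 over all genes. Dnmt3a is in this list as the targeted gene.

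Tet1 (mm9 chr10:62267318-62342762) was at 80.6, 127 and 72.5 CPM in WT-ITD and 31.9, 44.0, 25.9 and 42.2 CPM in KO-ITD. It was at 82.4, 113 and 78.6 CPM in KI-WT, 21.0 and 18.3 CPM in the f/+ libraries and 11.9 CPM in the f/f library. The intact libraries of the models covered similar ranges, and the deficient libraries lay below them in each. The pooled log2 fold change was -1.87 (SE 0.257, adjusted p = 0.0249, edgeR), with -1.37 in the retroviral model (adjusted p = 0.0924) and -2.42 in the knock-in model (adjusted p = 0.00671). Tet1 did not pass without WT-ITD 2, KI-WT 1, KI-WT 3 or KI-HET 2 (adjusted p of 0.0942, 0.0752, 0.0568 and 0.0612), though its log2 fold change stayed between -2.01 and -1.69 over the 13 fits without 1 library.

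The other writers and erasers did not pass in the pooled test. Dnmt1, the maintenance methyltransferase, had a log2 fold change of -0.48 (adjusted p = 0.341) and the other de novo enzyme, Dnmt3b, one of -0.63 (adjusted p = 0.252). Tet3 had -0.39 (adjusted p = 0.391). Tet2 had 2.02 (adjusted p = 0.133): it was at 0.88 to 3.40 CPM in WT-ITD, 2.04 and 3.90 CPM in KO-ITD 1 and 2 and 28.9 and 29.9 CPM in KO-ITD 3 and 4, so that its retroviral values divide the KO-ITD libraries by submission and tissue.

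Other genes that fell encode proteins of chromatin or the nucleus, a grouping made after the calls were seen and not tested. Phc1, a Polycomb repressive complex 1 subunit, was at 84.0 to 101 CPM in WT-ITD and 34.7 to 65.5 CPM in KO-ITD, and at 64.9 to 80.3 CPM in KI-WT and 18.8 to 26.5 CPM in the deficient knock-in libraries. Its log2 fold change was -1.24 (adjusted p = 0.0273, edgeR; past the threshold in 7 of the 13 fits without 1 library). Smaller falls included those of Pogz, a zinc finger protein that binds heterochromatin protein 1 (-0.80, adjusted p = 0.0486), and of Rfx5, a transcription factor of MHC class II genes (-0.94, adjusted p = 0.0477). Fbxl19, a CpG-binding zinc finger protein (-1.01), and Bcl9, a coactivator of beta-catenin (-1.20), also fell. Pogz and Bcl9 overlapped between the retroviral groups. Of the 13 fits without 1 library, Rfx5 passed in 3, Pogz and Bcl9 in 2 each and Fbxl19 in 1. The list of Polycomb and Trithorax regulators, which does not hold Phc1, had 0 of 21 tested members past the threshold and a median log2 fold change of -0.16. At an unadjusted p below 0.05, 2 were lower and 0 higher (9.34% and 14.5% of all genes). In the pooled test 3 fell without KO-ITD 2 and 2 fell with tissue as a covariate. Over all genes 541 of 13852 and 475 of 13926 fell in these fits.

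To be named among the largest falls, a gene had to show no overlap in either model and at least 5 CPM in the higher group of each. Ephb6, a kinase-dead Eph receptor expressed in T cells, was at 214, 213 and 76.3 CPM in WT-ITD and 13.8, 41.1, 42.0 and 60.2 CPM in KO-ITD. It was at 15.5, 17.5 and 10.1 CPM in KI-WT and at 1.49, 1.46 and 0.72 CPM in KI-HET 1, KI-HET 2 and KI-KO 1. WT-ITD 3 was the lowest intact retroviral library and still above KO-ITD 4. The pooled log2 fold change was -2.73 (SE 0.421, adjusted p = 0.0273, edgeR). Of the 24 T cell markers 0 passed in the pooled test. At an unadjusted p below 0.05, 0 rose and 3 fell (14.5% and 9.34% of all genes). The median of the 24 was -0.84 in the retroviral and 1.33 in the knock-in model. With the 2 members that had no counts on 1 side at their bound, the knock-in median was 1.14. Within the knock-in model 6 of the 24 rose and 1 fell (2.71% and 1.4% of all genes did). Cd3d and Cd8a, among these rises, had 1 and 8 counts in KI-WT against 162 and 199 in the deficient libraries. The summed level of the 24, which weighs the most abundant markers most, was lower in the deficient libraries of both models all the same. The retroviral median ran from -1.03 to -0.58 without 1 library. In the pooled test 1 marker fell without KO-ITD 2 and with tissue as a covariate (541 of 13852 and 475 of 13926 genes fell). Their part in the fall of Ephb6 was not tested.

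Nwd1, a predicted NACHT and WD repeat protein, was at 83.6, 95.4 and 99.3 CPM in WT-ITD and 48.0, 46.5, 10.5 and 13.6 CPM in KO-ITD. Knock-in levels were 68.3, 105 and 50.3 CPM in KI-WT and 7.19, 4.76 and 3.99 CPM in the deficient libraries. The deficient retroviral libraries formed a higher pair from marrow and a lower pair from thymus, both below WT-ITD. The pairs also came from different submissions, so tissue and submission cannot be told apart here. Nwd1 had a log2 fold change of -2.66 (SE 0.511, adjusted p = 0.0479).

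Pde4b, a phosphodiesterase that degrades cyclic AMP, was at 52.9, 59.9 and 43.9 CPM in WT-ITD and 14.04, 18.2, 21.8 and 27.6 CPM in KO-ITD, and at 99.6, 123 and 80.9 CPM in KI-WT and 59.2, 34.3 and 38.6 CPM in the deficient knock-in libraries. Its log2 fold change was -1.28 (adjusted p = 0.0273), with -1.36 in the retroviral and -1.20 in the knock-in model. Lpp, an adaptor protein of focal adhesions, was at 193 to 257 CPM in WT-ITD against 40.7 to 137 CPM in KO-ITD, and at 40.3 to 96.4 CPM in KI-WT against 13.5 to 30.8 CPM (-1.47, adjusted p = 0.0479). Slc5a3, a myo-inositol transporter, had a log2 fold change of -1.74, Rab11fip3, an effector of the recycling endosome GTPase Rab11, one of -1.83, and Ssx2ip, a centrosomal and cell junction protein, one of -1.45. Erc1, a scaffold protein, had -1.33, and Diexf, a nucleolar protein, -1.12. The adjusted p of these 5 lay between 0.0479 and 0.0486, and leaving out 1 library at a time kept all 5 in direction but kept at most 2 of the 13 fits for any of them past the threshold.

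**Figure D3:**
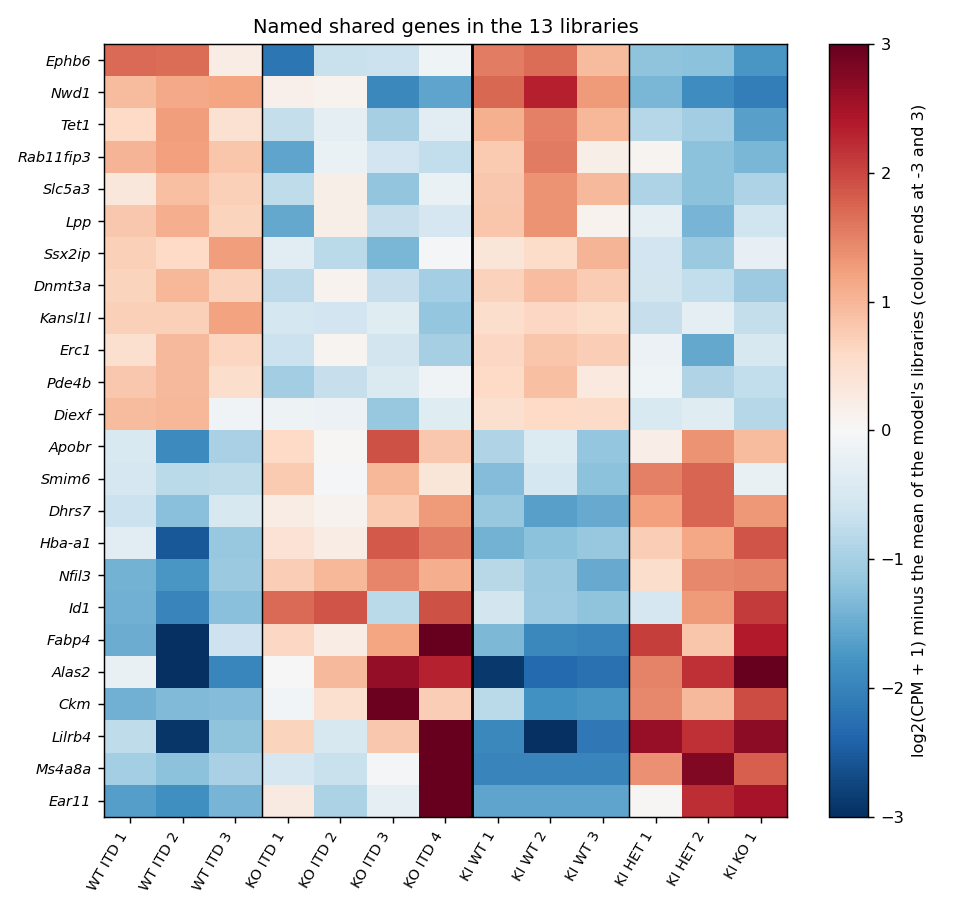
The 24 genes that met the naming rule (rows, ordered by pooled log2 fold change) in the 13 libraries (columns; WT ITD, KO ITD, KI WT, KI HET and KI KO as in the text), coloured by log2(CPM + 1) minus the mean of the libraries of the same model. The thick line parts the models and thin lines part intact from deficient libraries: the 12 falls are above the model mean in the intact libraries, except Diexf in WT ITD 3, and the 12 rises mainly in the deficient ones, with Ear11, Ms4a8a, Lilrb4 and Fabp4 highest in KO ITD 4 among the retroviral libraries.

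Among the rises, several are genes of mature myeloid cells, and their retroviral values leaned on KO-ITD 4. Lilrb4, an inhibitory immunoglobulin-like receptor of myeloid cells, was at 4.56, 0.24 and 3.09 CPM in WT-ITD and 13.9, 5.71, 15.4 and 138 CPM in KO-ITD. It was at 2.35, 0.19 and 1.89 CPM in KI-WT and 76.8, 57.6 and 80.3 CPM in the deficient knock-in libraries. The groups overlapped in neither model, but KO-ITD 4 was far above the other KO-ITD libraries. The pooled log2 fold change was 4.69 (SE 0.927, adjusted p = 0.0479, edgeR), and without KO-ITD 4 it was 3.79 (adjusted p = 0.0782).

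Ear11, an eosinophil-associated ribonuclease also made by macrophages, was at 0 to 0.37 CPM in WT-ITD, 0.85 to 3.32 CPM in KO-ITD 1 to 3 and 201 CPM in KO-ITD 4. In the knock-in model it had 0 counts in KI-WT and 486 in the deficient libraries (2.07, 12.9 and 15.4 CPM), at least 121-fold higher when KI-WT as a group is set to a floor of 3 counts. Ms4a8a, a membrane protein of the MS4A family, was at 0 to 0.19 CPM in WT-ITD, 0.48 to 1.25 CPM in KO-ITD 1 to 3 and 50.6 CPM in KO-ITD 4. The knock-in intact libraries had 0 counts of it and the deficient ones 734 (9.33, 26.4 and 12.8 CPM), at least 183-fold higher against the same floor. Both rose in the pooled test (adjusted p of 0.0486 and 0.0479), with log2 fold changes of 8.43 and 7.67, fitted values that depend on the prior count. Without KO-ITD 4 these were 5.40 for each (adjusted p of 0.0745 and 0.0785). Without WT-ITD 3 the value of Ear11 was 9.35 (adjusted p = 0.0543). Ear11 and Lilrb4 have close paralogs, so their counts are uncertain.

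Fabp4, a fatty acid carrier of fat cells, capillary endothelium and macrophages, was at 4.66, 0.24 and 9.27 CPM in WT-ITD and 23.4, 17.4, 35.1 and 210 CPM in KO-ITD. It was at 1.08, 0.38 and 0.33 CPM in KI-WT and 21.1, 8.34 and 26.3 CPM in the deficient knock-in libraries. Fabp4 had a log2 fold change of 4.36 (SE 0.877, adjusted p = 0.0486), against 3.58 without KO-ITD 4 (adjusted p = 0.0772) and 4.94 without WT-ITD 3 (adjusted p = 0.0490). Spp1, which encodes the secreted phosphoprotein osteopontin, was at 2.18 to 8.53 CPM in WT-ITD and 7.97 to 264 CPM in KO-ITD, with overlap, and at 1.68 to 3.80 CPM in KI-WT and 25.2 to 72.6 CPM in the deficient knock-in libraries. Its log2 fold change was 4.25 (adjusted p = 0.0442), and 3.47 without KO-ITD 4 (adjusted p = 0.0424).

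The summed level of monocyte and macrophage markers was highest in KO-ITD 4 among the retroviral libraries and in KI-HET 2 and KI-KO 1 among the knock-in libraries. In KI-HET 1, where Lilrb4 and Fabp4 were high, this sum lay within the range of KI-WT. All 19 tested markers of this list had a higher fitted level in deficient libraries in both models (34.7% of all genes did), and 16 of the 19 were higher at an unadjusted p below 0.05 (14.5% of all genes were), but 0 of the 19 passed after adjustment. Without KO-ITD 2, 6 of them rose, and with tissue as a covariate 11 rose. Over all genes 644 of 13852 and 737 of 13926 rose in these fits, against 39 in the main one. Their median log2 fold change was 2.87 (retroviral 3.17, knock-in 2.93). The summed level was 77.7 to 487 CPM in WT-ITD, 236 to 536 CPM in KO-ITD 1 to 3 and 6466 CPM in KO-ITD 4, and 374 to 1143 CPM in KI-WT against 978, 5836 and 10970 CPM in KI-HET 1, KI-HET 2 and KI-KO 1. The groups overlapped in both models. Without KO-ITD 4 the list's retroviral median was 0.94 and 15 of 19 were higher in both models, and without KI-KO 1 its knock-in median was 1.44. Without WT-ITD 3 the retroviral median was 4.64, and without KI-WT 1 the knock-in median was 3.78. No defining marker was at 0 in the deficient libraries. Their part in the myeloid rises was not tested. In bulk RNA, more cells of a type and more RNA per cell cannot be told apart.

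Smaller rises were more even across libraries. Dhrs7, a short-chain dehydrogenase, was at 10.2, 6.36 and 11.6 CPM in WT-ITD and 19.7, 17.99, 29.3 and 41.5 CPM in KO-ITD, and at 24.6, 17.1 and 18.6 CPM in KI-WT and 130, 188 and 138 CPM in the deficient knock-in libraries. No group overlapped, and the log2 fold change was 2.17 (SE 0.316, adjusted p = 0.0273, edgeR). Apobr, a receptor for lipoproteins that contain apolipoprotein B48, had a log2 fold change of 1.98 (adjusted p = 0.0479), from 2.00 to 7.19 CPM in WT-ITD to 10.4 to 40.8 CPM in KO-ITD and from 25.6 to 43.6 CPM in KI-WT to 67.5 to 151 CPM. Smim6, a small membrane protein, had 1.99 (adjusted p = 0.0479). Crip1, a LIM domain protein, had 1.24 (adjusted p = 0.0273), from 235 to 290 CPM in WT-ITD to 328 to 638 CPM in KO-ITD and from 56.9 to 67.4 CPM in KI-WT to 171 to 222 CPM.

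Id1, which encodes an inhibitor of basic helix-loop-helix transcription factors, was the only one of 30 tested FLT3, STAT5 and MAP kinase response genes to pass (0.582% of all genes did). Id1 stood at 1.49, 0.71 and 1.85 CPM in WT-ITD and 21.2, 24.1, 2.86 and 24.3 CPM in KO-ITD, and at 7.59, 4.93 and 4.51 CPM in KI-WT and 7.91, 29.7 and 52.9 CPM in KI-HET 1, KI-HET 2 and KI-KO 1. KO-ITD 3 and KI-HET 1 were close to the intact libraries. The log2 fold change was 3.10 (SE 0.604, adjusted p = 0.0479, edgeR). Id1 passed in 2 of the 13 fits without 1 library, those without KO-ITD 2 and KI-HET 1, with a highest adjusted p of 0.141. The list's median was 0.35 (retroviral -0.23, knock-in 0.55). It ran from -0.03 to 0.47 without 1 library, and without KI-HET 1 the knock-in median was -0.57. In the retroviral model it ran from -0.34 to -0.04. Flt3 itself was at 0.51 to 7.54 CPM in the retroviral libraries and 103 to 302 CPM in the knock-in libraries, with a log2 fold change of -0.63 (adjusted p = 0.417). These counts are of the mouse Flt3 gene, and whether they include the vector's FLT3-ITD transcript was not examined.

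Of the 19 tested erythroid genes Alas2 and Hba-a1 rose, none fell and 17 did not pass (0.28% of all genes rose and 0.302% fell). Alas2, the first enzyme of heme synthesis in red cell precursors, was at 139, 11.3 and 41.2 CPM in WT-ITD and 165, 320, 1014 and 808 CPM in KO-ITD. It was at 0.18, 0.76 and 0.86 CPM in KI-WT and 23.7, 39.4 and 120 CPM in the deficient knock-in libraries. WT-ITD 1 was close to KO-ITD 1. The log2 fold change was 4.37 (SE 0.871, adjusted p = 0.0486), and Alas2 passed in 2 of the 13 fits without 1 library, those without WT-ITD 1 (5.29, adjusted p = 0.0262) and without KO-ITD 2 (4.64, adjusted p = 0.0201). In the other 11 it was 3.98 to 4.72, with an adjusted p of up to 0.141. Hba-a1, an alpha globin gene that has a near-identical copy, was at 6.89 to 35.5 CPM in WT-ITD against 53.3 to 164 CPM in KO-ITD, and at 2.71 to 3.57 CPM in KI-WT against 15.6 to 36.0 CPM (a log2 fold change of 2.58, adjusted p = 0.0313). The erythroid regulators Gata1 and Klf1 did not pass in the knock-in model, where their fitted log2 fold changes were -3.43 (adjusted p = 0.101) and -3.17 (adjusted p = 0.231). The list's median was 0.42 (retroviral 1.03, knock-in -0.20), and its summed level overlapped in both models, at 354 to 1461 against 900 to 2318 CPM and at 661 to 1538 against 486 to 1298 CPM. The medians rested on single libraries. The retroviral one was 3.77 without WT-ITD 1, 0.46 without WT-ITD 2, 0.57 without WT-ITD 3 and -0.008 without KO-ITD 2. The knock-in one was 0.78 without KI-WT 3, 0.29 without KI-HET 1, 0.22 without KI-HET 2, -0.11 without KI-WT 2, -0.47 without KI-WT 1 and -1.26 without KI-KO 1. The number of erythroid genes that rose was 0 to 3 without 1 library, and none fell.

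**Figure D4:**
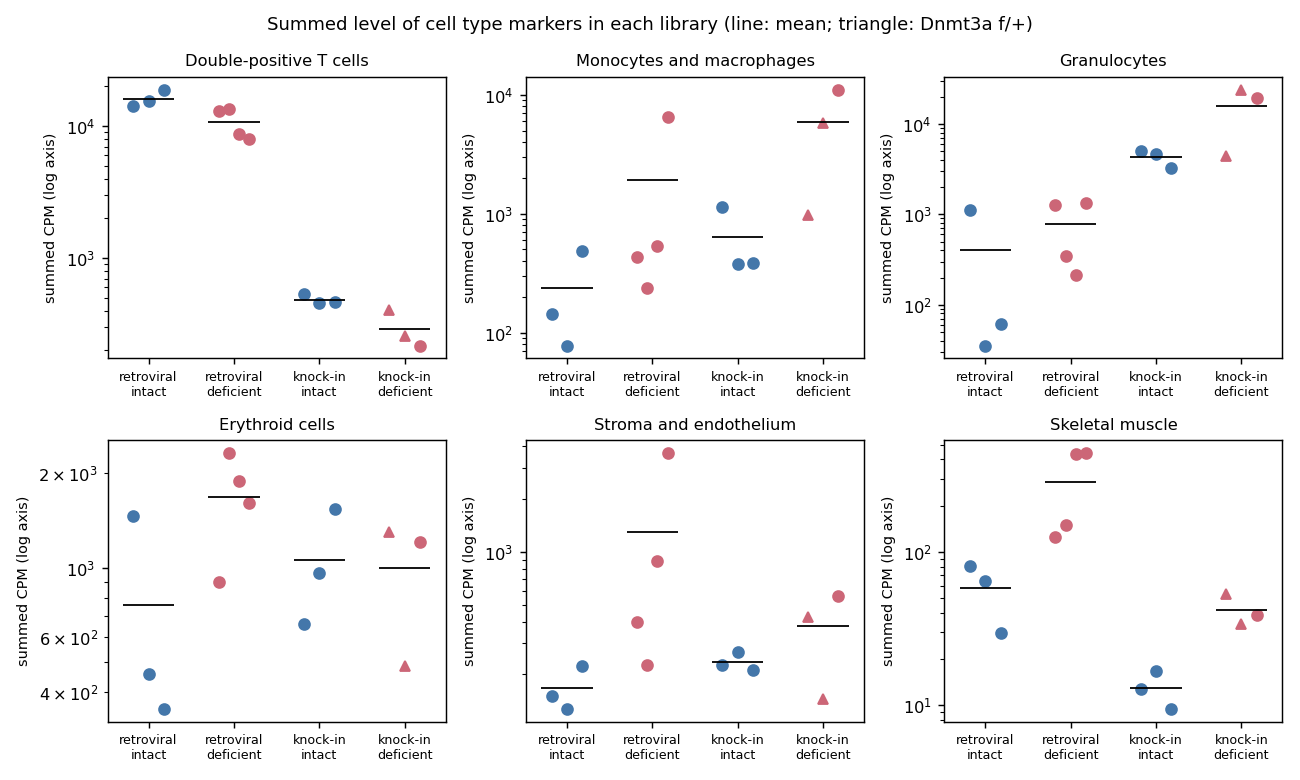
Summed CPM of 6 marker lists in each library on a log axis, by model and Dnmt3a status; lines are group means and triangles the Dnmt3a f/+ libraries. Monocyte and stroma sums are highest in KO-ITD 4 among the retroviral libraries, and the skeletal muscle sums do not overlap between intact and deficient libraries in either model.

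Skeletal muscle genes were among the rises in both models. Ckm, muscle creatine kinase, was at 0.15, 0.24 and 0.25 CPM in WT-ITD and 1.92, 3.31, 22.7 and 4.197 CPM in KO-ITD. It was at 2.17, 0.57 and 0.66 CPM in KI-WT and 13.9, 9.81 and 20.5 CPM in the deficient knock-in libraries. No group overlapped, and KO-ITD 3 was the highest of its group. The log2 fold change was 4.47 (SE 0.725, adjusted p = 0.0313, edgeR), and 3.74 without KO-ITD 3 (adjusted p = 0.0194).

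The myosin heavy chains Myh1, Myh2 and Myh4 and the thin filament and sarcomere genes Tnnc2, Tnnt3 and Tcap are the other muscle genes among the 81, at levels of 0.43 to 29.8 CPM in KO-ITD and no more than 1.59 CPM in WT-ITD. None of the 6 overlapped between the retroviral groups, and the closest values were those of Tnnt3, at 1.59 CPM in WT-ITD 1 and 1.79 CPM in KO-ITD 1. In the knock-in model these 6 genes were at 0.06 to 4.28 CPM in the deficient libraries and at 0 to 0.04 CPM in KI-WT. Myh1, Myh2, Myh4 and Tnnc2 had 21, 13, 23 and 28 counts in the deficient libraries and 0 in KI-WT. Against the floor of 3 counts that is at least 5.23-, 3.24-, 5.73- and 6.97-fold. Tnnt3 and Tcap had 137 and 30 counts against 1. Myh2 and Myh4 were at 0.71 and 1.17 CPM in KI-HET 1 and at 0.06 to 0.22 CPM in KI-HET 2 and KI-KO 1. A list of 20 skeletal muscle genes was drawn up after these values were seen. It holds the genes that prompted it, apart from Tcap, so its count and median describe these libraries and support nothing. Of its 16 tested members 6 passed, all as rises (0.28% of all genes rose). The list's median log2 fold change was 4.18 (retroviral 3.64, knock-in 4.36, or 2.09 with the 7 members that had no counts on 1 side at their bound). The summed level was 29.2 to 80.4 CPM in WT-ITD against 126, 150, 432 and 439 CPM in KO-ITD, and 9.39 to 16.5 CPM in KI-WT against 52.8, 33.7 and 38.6 CPM. Without KO-ITD 3 and 4 the number passing was 1 and the retroviral median 1.78. It was also 1 without KO-ITD 3 or KO-ITD 4 alone, 0 without WT-ITD 2 or any of KI-WT 1, 2 and 3, KI-HET 2 or KI-KO 1, 3 without WT-ITD 3, KO-ITD 1 or KI-HET 1, and 9 without KO-ITD 2 (where 644 of all 13852 genes rose). With submission as a covariate it was 1 as well. Acta1, a defining gene of muscle, had 0 counts in every library. These zeros cannot tell an absent transcript from a gene that the counts did not capture.

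Markers of stroma and endothelium were high in some of the same libraries. Of the 18 tested, 0 passed after adjustment, 13 were higher and 1 lower at an unadjusted p below 0.05 (14.5% and 9.34% of all genes), and the median log2 fold change was 3.73 (retroviral 4.11, knock-in 2.97). Their summed level was 127 to 223 CPM in WT-ITD against 227 to 3644 CPM in KO-ITD, without overlap, and 213 to 269 CPM in KI-WT against 145 to 562 CPM, with overlap. Without KO-ITD 2, 7 of them rose, and with tissue as a covariate 11 did. Over all genes 644 of 13852 and 737 of 13926 rose in these fits. Without KO-ITD 4 the retroviral median was 2.102 and without WT-ITD 3 it was 5.59, and without KI-KO 1 the knock-in median was 1.597. What these cells or their RNA contribute to the rises of muscle genes and Fabp4 was not tested.

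In 4 of the 81 genes one model had at most 10 counts over all its libraries, so that their direction there says little. Kank4, a protein of the KANK family linked to the cytoskeleton, was at 0.05, 0.18 and 0.06 CPM in WT-ITD and 68.7, 31.6, 230 and 216 CPM in KO-ITD. No other shared gene had a larger log2 fold change (9.42 pooled, adjusted p = 0.0273; 10.37 in the retroviral model, adjusted p = 0.00324, edgeR). In the knock-in model it had 2 counts in KI-WT and 8 in the deficient libraries, a ratio of 2.99 with a 95% exact counting interval of 0.596 to 28.9. Without KO-ITD 3 the pooled value was 8.79 (adjusted p = 0.0540), and without KI-WT 3 it was 10.30 (adjusted p = 0.00189). Esrp1, an epithelial splicing regulator, was at 257, 304 and 15.2 CPM in WT-ITD and 0.89 to 7.59 CPM in KO-ITD, with 1 count in the whole knock-in model. Sall3, a zinc finger transcription factor, was at 96.4, 106 and 20.4 CPM in WT-ITD and 1.15 to 6.49 CPM in KO-ITD, with 5 counts in the knock-in model. Nkx2-3, a homeobox gene, was at 15.5, 36.2 and 4.39 CPM in KI-WT and 0, 0.37 and 0 CPM in the deficient knock-in libraries, with 2 counts in the retroviral model.

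The 5 shared genes called in the retroviral model were Nfil3, Kansl1l, Kank4, Fbp1 and B4galt1. Fbp1, an enzyme of gluconeogenesis, was at 16.6, 15.02 and 28.3 CPM in WT-ITD and 238, 162, 124 and 184 CPM in KO-ITD, but at 13.6, 13.1 and 9.80 CPM in KI-WT and 17.95, 59.3 and 26.4 CPM in the deficient knock-in libraries. The groups did not overlap in either model, and the log2 fold changes were 3.15 (adjusted p = 0.0290, edgeR) and 1.51 (adjusted p = 0.0622). B4galt1, a galactosyltransferase of the Golgi, was at 54.8 to 59.8 CPM in WT-ITD against 141 to 287 CPM in KO-ITD, and at 137 to 149 CPM in KI-WT against 152 to 355 CPM (1.82, adjusted p = 0.0433, and 0.81, adjusted p = 0.117). Tpi1, an enzyme of glycolysis, also rose in the pooled test (0.96, adjusted p = 0.0401).

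The size of the effect differed between models for 24 genes at an adjusted p of 0.05 (0.172% of those tested), and 1 of these was among the 81. Fam65a was at 72.4 to 94.1 CPM in WT-ITD and 45.9 to 67.7 CPM in KO-ITD, and at 349 to 437 CPM in KI-WT and 74.6 to 97.4 CPM in the deficient knock-in libraries. It was lower in the deficient libraries of both models without overlap, by -0.59 and -2.21 on the log2 scale. The difference was -1.62 on that scale, past the threshold. The number of genes that differed was 0 without WT-ITD 1, WT-ITD 2, KI-WT 2 or KI-KO 1 (1703 to 1937 genes at an unadjusted p below 0.05), 1 without KI-WT 1 or KI-WT 3, 6 without KI-HET 2, 7 without KO-ITD 1, 67 without KO-ITD 4, 195 without WT-ITD 3 and 732 without KI-HET 1.

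Lists that bear on what Dnmt3a loss is known for gave no shared call. Only 0.582% of all genes passed, so lists this short would mostly hold none, and these zeros say little about their genes. Of 26 stem and progenitor genes 0 passed in the pooled test (0 rose and 4 fell at an unadjusted p below 0.05, against 9.34% of all genes as falls). In the knock-in model 6 fell (among them Mecom, Slamf1, Mllt3, Hmga2 and Sox4) and none rose, with a list median of -1.97 (1.4% of all genes were called as falls there). In the retroviral model none passed and the median was 1.54. Without KO-ITD 4 the retroviral median was 0.55 and without WT-ITD 2 it was 1.02, and without KI-HET 1 the knock-in median was -3.76. In the pooled test 3 fell without KO-ITD 2 and with tissue as a covariate (541 of 13852 and 475 of 13926 genes fell in these fits). The median of all genes was 0.06 in the retroviral and 0.10 in the knock-in model. The summed level was 3042 to 5508 CPM in KI-WT, 2734 CPM in KI-HET 1 and 579 and 576 CPM in KI-HET 2 and KI-KO 1. Of 20 granulocyte markers 0 passed in the pooled test, with a median of 1.94. At an unadjusted p below 0.05, 6 were higher and 0 lower (14.5% and 9.34% of all genes). Without WT-ITD 1, 8 of them rose and the median was 4.46, and 2 rose without KO-ITD 2 and with tissue as a covariate. Rises over all genes were 79 of 14412, 644 of 13852 and 737 of 13926 in these fits. Within the knock-in model 4 of the 20 rose (2.71% of all genes did). These markers summed to 3230 to 5042 CPM in KI-WT, 4394 CPM in KI-HET 1 and 23830 and 19380 CPM in KI-HET 2 and KI-KO 1. Their part in the falls of stem cell genes was not tested.

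Of 32 interferon response genes 0 passed in the pooled test, where 0.582% of all genes did. At an unadjusted p below 0.05, 8 were lower and 1 higher (9.34% and 14.5% of all genes). The median was -0.56, from 0.03 in the retroviral and -1.17 in the knock-in model. In the knock-in model 4 of the 32 fell, among them Ifit2, Ifih1 and Ddx58 (1.4% of all genes did). Without 1 library the retroviral median ran from -0.34 (without KO-ITD 4) to 0.67 (without WT-ITD 3). In the pooled test 4 fell without KO-ITD 2, 1 without WT-ITD 1 and 5 with tissue as a covariate. Falls over all genes were 541 of 13852, 32 of 14412 and 475 of 13926 in these fits. Irf9, a subunit of the interferon-stimulated transcription factor, lay just outside the pooled threshold (-0.93, adjusted p = 0.0506). None of the tested HOX genes (11), imprinted genes (19), germline genes silenced by methylation (5), Notch genes (15), cell cycle genes (36), MYC and ribosome biogenesis genes (28) or p53 targets (22) passed in the pooled test, and at an unadjusted p below 0.05 these lists had between 0 and 3 members higher and between 0 and 1 lower. The remaining lists, which are B lineage, natural killer, dendritic, basophil and mast cell, megakaryocyte and double-positive T cell markers, early T cell oncogenes, oncofetal genes and serine and one-carbon enzymes, had 0 members past the threshold as well, with 0 to 1 higher and 0 to 3 lower at an unadjusted p below 0.05. Without 1 library or with tissue as a covariate, each of the lists in these last sentences had at most 1 rise and 1 fall.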

How the data were processed

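Polyadenylated RNA was sequenced, and the authors deposited estimated counts of fragments per gene and per transcript, unscaled, in tables of all 17 libraries. Per the submitters' processing notes, TopHat2 2.0.10, Cufflinks 2.1.1 (no version for the later records) and Cuffdiff 2.1.1 or 2.2.1 were used with genome build mm9. The sources used here name neither the tool that wrote the counts nor its use of strand, so overlapping or near-identical genes are uncertain. FPKM files, which cover no knock-in library, were not used.

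The expected counts as deposited (98.12% to 98.54% of nonzero values whole within 0.001) were rounded. In R 4.3.3, edgeR 4.0.16 removed low genes with filterByExpr, which kept 13926 of 23458 names (133 names lie on several loci), and applied TMM scaling (factors from 0.925 to 1.091). Quasi-likelihood models were fitted to 13 libraries: model plus Dnmt3a status, and 4 cells of model by status for the effect within each model and its difference. Tests were two-sided with Benjamini-Hochberg adjustment at 0.05. CPM are counts per scaled library. Standard errors come from the F statistic. Alternatives used DESeq2 1.42.0 and limma 3.58.1. The fitting script was tested on simulated data.

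The text names the 12 rises and 12 falls (Dnmt3a is one of them) with the largest smaller-of-the-models log2 fold change among genes past the threshold with the same sign, at least 5 CPM in the higher group of each model, no overlap in either model and no predicted name, and up to 4 passing genes per list. Further genes were chosen after their values were seen. Some genes are not reported here. The libraries, gene lists and comparisons were chosen with earlier results of these data known.

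Replicates of a group differed by more than counting noise. Counting intervals cover counting error only.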

Additional observations from a re-analysis of the deposited data

Results flagged for a closer look

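In the 4 KO-ITD libraries, 35 values were examined for 1 library standing apart: 24 named genes and 11 marker lists. In 8 of them the gap between 1 library and its neighbour exceeded the 95% critical value for a group of 4, where chance gives about 1 in 20. KO-ITD 4 was the highest library for Ear11 (201 CPM), Ms4a8a (50.6 CPM), Lilrb4 (138 CPM), Fabp4 (210 CPM) and the summed monocyte and macrophage list (6466 CPM). KO-ITD 3 was the highest for Ckm (22.7 CPM) and the lowest for Id1 (2.86 CPM). KO-ITD 2 was the lowest for the summed basophil and mast cell list (49.9 CPM).

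The effect of Dnmt3a deficiency differed between the models, by the interaction term of the edgeR fit, for 8 genes described here, given as knock-in minus retroviral log2 fold change. Cd3d, a T cell receptor subunit (6.40; the knock-in intact libraries held 1 count), Vcan, an extracellular matrix proteoglycan (9.19), Id2, an inhibitor of helix-loop-helix factors (3.30), and Cmtm6, a membrane protein that stabilises PD-L1 (2.29), had the higher value in the knock-in model. Pdgfrb, a growth factor receptor of stromal cells (-9.76), Slamf1, a surface receptor of stem cells and lymphocytes (-4.35), Pml, the nuclear body protein (-1.66), and Fam65a (-1.62) had the lower.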

How the results depend on the processing

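Counts are given as genes past the threshold in the pooled test (81 as reported, all with the same direction in both models), the retroviral model (18), the knock-in model (573), both models alike (2) and the difference between models (24). Scaling: the pooled count was 26 with DESeq2's size factors and 30 with upper quartile scaling in edgeR. Filter: without one it was 22, and the knock-in count 296. Tools: DESeq2's Wald test gave 1821 pooled (1802 alike in direction), 872, 2191, 132 and 772, and limma with voom 201 (188 alike), 1 in both models and 1 for the difference. A fit to all 17 libraries gave 1764 (1649), 121, 1466, 15 and 341. The equal-weight mean of the 2 models' effects gave 626 (591). With the f/+ libraries alone the counts were 20 pooled, 68 knock-in, 1 in both and 0 for the difference (1937 at an unadjusted p below 0.05), and with the f/f library alone, assumed to vary like the other groups, 9 pooled, 1 in both and 160.

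Submission as a covariate gave 14 pooled, 8 retroviral, 1212 knock-in, 1 in both and 94; tissue 1212 (1208), 317, 1078, 51 and 126; marrow libraries alone 254 (251), 196, 1031, 23 and 178, where WT-ITD 2 is the only intact retroviral library and is assumed to vary like the other groups. Added after seeing the data, leaving out both Xist libraries gave 976 (972), 260, 16 in both and 198, and leaving out KO-ITD 3 and 4 gave 15 pooled, 1336 knock-in and 146. At an adjusted p of 0.10, also added, 1145 passed (1135 alike). Leaving out 1 library at a time moved the counts between 1 and 1185 pooled (1 and 1180 alike), 0 and 158 retroviral, 5 and 1616 knock-in, 0 and 7 in both, and 0 and 732 for the difference. Up to 81 of the 81 could be tested in each of 29 alternatives, and 989 of their 2335 values were past the threshold. None changed direction, which the selection of the 81 from these same libraries favours. DESeq2's Wald test called 80 of the 81. The cause of these shifts was not tested.

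Replicate numbers do not pair the samples by their labels, and deviations of same-numbered libraries correlated at -0.14 to 0.38, so no pairing was assumed. With the replicate number as a block within each model the edgeR counts were 1 pooled (Kank4), 1 retroviral, 0 knock-in (2590 at an unadjusted p below 0.05), 0 in both and 1 for the difference. Nfil3, Kansl1l and Dnmt3a kept their direction under the block (2.54, -1.28 and -1.39, adjusted p = 0.134 for each).

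Precision is limited by 3 or 4 libraries a group, by the single f/f library, and by low counts for the muscle and myeloid genes in the intact libraries.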
